A study of Caenorhabditis elegans with 6 samples.

Results

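The genes described here build the contractile apparatus of *Caenorhabditis elegans* muscle and fix it to the cell membrane and the matrix outside. They were chosen by name, as 43 WormBase symbols, and all 43 were found once each among the 21507 genes of the deposited table. For the account they were put into 7 classes by role: the thick filament of body wall muscle (7 genes), the myosin heavy chains of the pharynx (2), the myosin light chains (3), actin and its partners (6), the troponins and tropomyosin of body wall or shared use (8), the troponins of the pharynx (3) and the attachment genes (14). No member belongs to the gonadal sheath alone, because the sheath borrows body wall forms such as the troponin T gene *mup-2*. RNA was sequenced from untreated whole bodies of L4 hermaphrodites, larvae at the stage before adulthood, in 3 samples of a glna knockout and 3 samples of the wild-type strain N2. The glna genes encode glutaminases, which convert glutamine to glutamate, and the labels give neither the alleles nor which of the genes were removed. Nothing in the labels says that the samples of a genotype were separate cultures. The p-values set the difference between genotypes against the spread among samples of a genotype, and that spread may be technical.

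Muscle contracts when myosin heads on thick filaments pull on actin in thin filaments, and calcium switches this on by binding troponin C, which moves troponin I, troponin T and tropomyosin along actin. In the worm, body wall muscle lies against the epidermis, and its filaments are anchored at integrin-based dense bodies and M-lines, through which force passes to the basement membrane and the cuticle. The pharynx, the pumping organ that takes in food, is built from its own myosin heavy chains and its own troponins. Because whole bodies were sequenced, fewer muscle cells and less RNA per muscle cell cannot be told apart.

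The libraries held between 18443661 and 19861540 reads assigned to genes. Values below are the authors' normalized counts, reads divided by 1 size factor per library. Of the glutaminase genes, *glna-2* had 37.4, 66.0 and 69.5 normalized counts in the knockout, against 519, 408 and 448 in wild type, and *glna-3* had 83.1, 175 and 116 in the knockout, against 761, 670 and 636 in wild type. *glna-1* was also lower, at 187, 128 and 151 in the knockout, against 268, 255 and 270 in wild type. Knockout replicate 1 stood apart from the other libraries. In it 3.58% of reads came from ribosomal RNA genes, where no other library exceeded 0.763%, and the 10 leading genes held 13.65% of reads, where no other library exceeded 6.60%. Oocyte markers summed to 27191 to 65784 normalized counts in the knockout and 15842 to 24412 in wild type, with knockout replicate 1 the highest. Of the 12 markers, 10 (83.3%) had knockout values above all wild-type values, against 15.3% of all genes tested. None of the markers was at 0 in any library. Log2 fold changes without knockout replicate 1 are given beside most of those that this library moves by more than 1.5 times.

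The role classes differed in their medians, but medians of classes as small as 2 or 3 genes spread more than that of the whole list. Class medians of the log2 fold change of knockout over wild type ran from -0.19 in the light chains to 0.69 in the pharyngeal heavy chains, and from -0.11 to 0.42 in the same classes without knockout replicate 1. Each gene was tested with limma on log2(normalized count + 1), with Benjamini-Hochberg adjustment over the 15169 genes that averaged at least 10, and every member passed that filter. At an adjusted p under 0.05, 0 members were called higher and 0 lower in the knockout, where limma called 0.211% of all genes higher and 0.145% lower. At an unadjusted p under 0.05, limma put 7 members higher and 5 lower, which is 16.3% and 11.6% of them, against 10.9% and 11.8% of all genes tested. In the authors' deposited table, 3 members had an adjusted p under 0.05 and were higher in the knockout, namely *myo-1*, *myo-2* and *tnt-3*, and 0 were lower. That table called 2.83% of its genes higher and 2.92% lower, or 4.01% and 4.13% of the genes that averaged at least 10. Those 3 members were also the ones DESeq2 called higher on the recovered reads, with 0 lower, both with all libraries, where it called 4.12% of all genes higher and 4.18% lower, and without knockout replicate 1, where it called 2.31% higher and 3.08% lower. edgeR on the same reads called 0 members in either direction, and 0.0264% of all genes higher and 0.033% lower. The knockout values lay above all wild-type values for 12 members (27.9%) and below all of them for 6 (14.0%), against 15.3% and 15.2% of all genes tested. The median log2 fold change was 0.03 over the members and 0.01 over all genes tested, and the members ran from -0.50 to 0.72. Without knockout replicate 1 these medians were 0.04 and 0.004. Knockout replicate 1 was the highest of the 6 libraries for 18 members (41.9%) and the lowest for 11 (25.6%), against 30.8% and 28.8% of all genes tested.

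**Figure D1:**
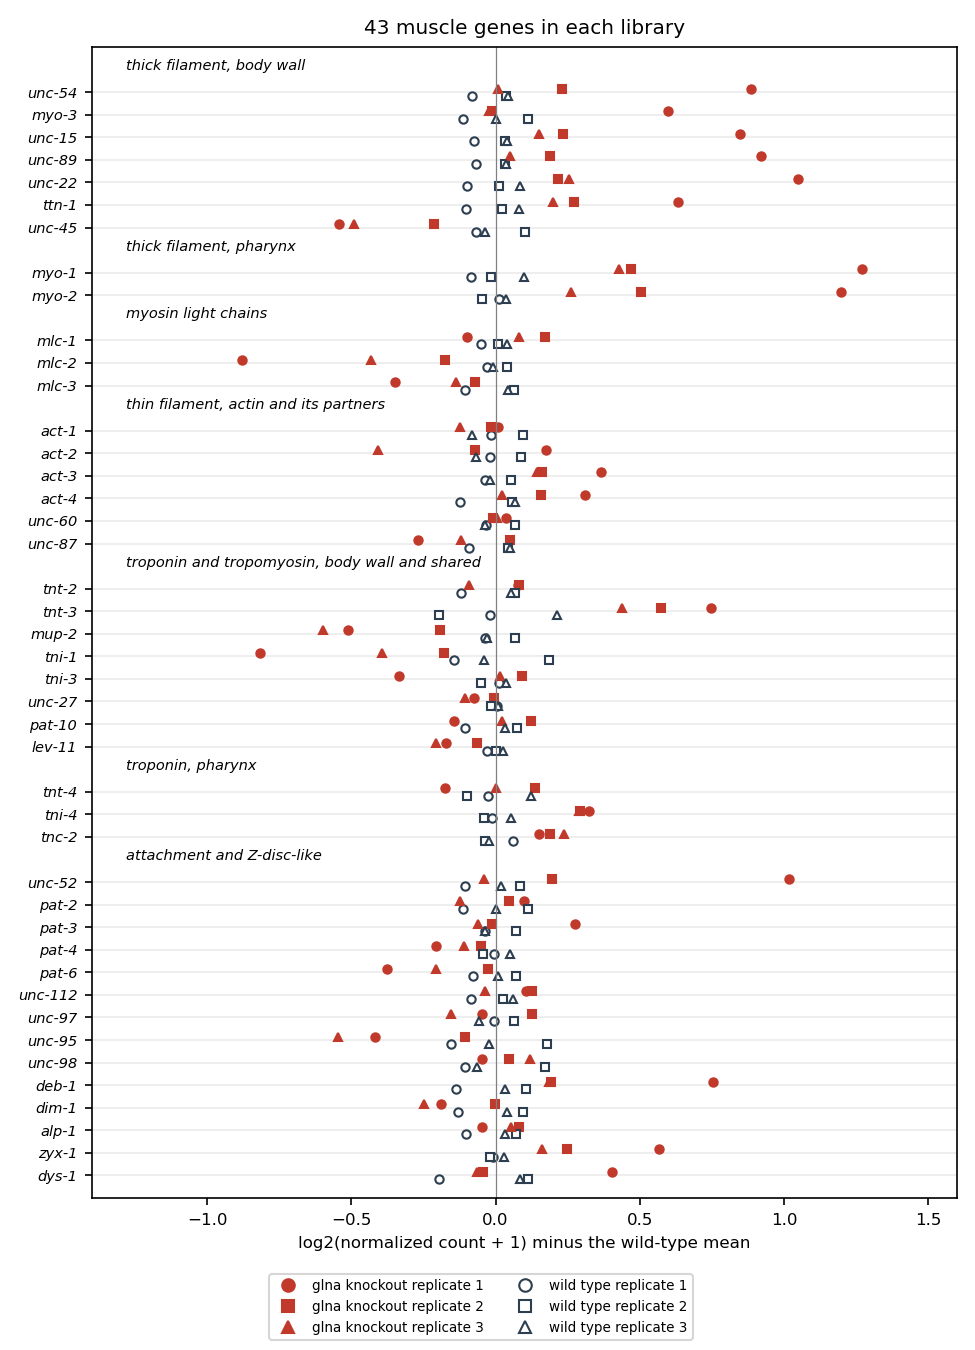
Each of the 43 members is drawn in every library as its log2 normalized count minus the wild-type mean, grouped by role class, with the 3 knockout libraries and the 3 wild-type libraries marked apart. *myo-1* and *myo-2* reach the highest values, in knockout replicate 1, and the knockout points of *unc-45*, *mlc-2*, *mup-2*, *tni-1*, *lev-11* and *pat-4* all lie below their wild-type points.

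The myosin heavy chains of the pharynx, *myo-1* and *myo-2*, were the class with the highest fold changes of knockout over wild type. *myo-1* (R06C7.10, chromosome I, 7258946 to 7267057, minus strand, WBcel235) had 17450, 10007 and 9724 normalized counts in the knockout, against 6821, 7157 and 7738 in wild type. All 3 knockout values were above all wild-type values, and knockout replicate 1 was far the highest. Its fold change was 1.65, a log2 value of 0.72 ± 0.22 (SE) with a 95% interval of 0.22 to 1.23, and the adjusted p was 0.125 by limma. *myo-2* (T18D3.4, chromosome X, 12468061 to 12475348, plus strand) had 20476, 12663 and 10700 normalized counts in the knockout and 8993, 8634 and 9165 in wild type. The groups again did not overlap, and the fold change was 1.57, a log2 value of 0.65 with a 95% interval of 0.15 to 1.16 and an adjusted p of 0.146 by limma. The authors' deposited table gave *myo-1* a log2 fold change of 0.78 with an adjusted p of 0.0215, and *myo-2* 0.71 with 0.0394. Without knockout replicate 1 the log2 fold changes were 0.45 for *myo-1* and 0.38 for *myo-2*, with adjusted p of 0.105 and 0.152 by limma.

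The heavy chains of body wall muscle were *unc-54*, which makes up most of the myosin there, and *myo-3*, which sits at the centre of the thick filament. *unc-54* (F11C3.3, chromosome I, 14855901 to 14863482, minus strand) had 238035, 151254 and 129584 normalized counts in the knockout, against 121732, 132147 and 132776 in wild type. The groups overlapped, since knockout replicate 3 lay inside the wild-type range, and the log2 fold change of 0.38 had a 95% interval of -0.16 to 0.91 and an adjusted p of 0.363 by limma. Without knockout replicate 1 it was 0.12, and its direction turned under quantile normalization, which gave -0.51. *myo-3* had 15110, 9877 and 9820 normalized counts in the knockout and 9232, 10770 and 9978 in wild type. Only knockout replicate 1 exceeded the wild-type values, and without it the log2 fold change was -0.02, against 0.19 with it.

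**Figure D2:**
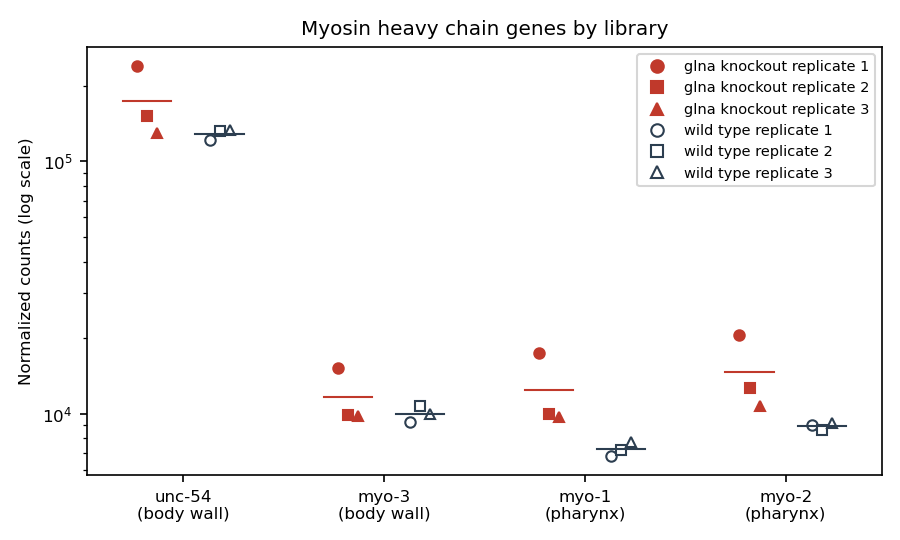
Normalized counts are plotted on a log axis for the 4 muscle myosin heavy chain genes, with 1 point per library and a line at each mean, knockout left of wild type. The knockout points of *myo-1* and *myo-2* lie above all their wild-type points, and those of *unc-54* and *myo-3* overlap with theirs.

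These 4 heavy chain genes are of like length, from 6105 to 6504 bases, and the size factor of a library cancels in their ratios. This comparison was added after the values were seen, so its p-values are given as a description and not as support. *myo-1* stood at 7.33%, 6.62% and 7.50% of *unc-54* in the knockout and at 5.60%, 5.42% and 5.83% in wild type, means of 7.15% ± 0.471 and 5.62% ± 0.206 (SD, n = 3 each). *myo-2* stood at 8.60%, 8.37% and 8.26% of *unc-54* in the knockout and at 7.39%, 6.53% and 6.90% in wild type, means of 8.41% ± 0.176 and 6.94% ± 0.428 (SD, n = 3 each). For both, every knockout library was above every wild-type library, and knockout replicate 1 did not stand apart from the other knockout libraries. A two-sided exact permutation test gave p = 0.1 for each, the smallest value that 3 against 3 allows, and 0.2 after Benjamini-Hochberg adjustment over the 4 ratios computed. *myo-3* stood at 6.35%, 6.53% and 7.58% of *unc-54* in the knockout and at 7.58%, 8.15% and 7.51% in wild type. Those groups overlapped, with an exact permutation p of 0.2. The ratio of the 2 pharyngeal genes to each other overlapped between the genotypes, *myo-1* being 85.2%, 79.0% and 90.9% of *myo-2* in the knockout and 75.8%, 82.9% and 84.4% in wild type (exact permutation p = 0.4). These ratios show unequal values between genes and do not say which gene of a ratio differed.

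**Figure D3:**
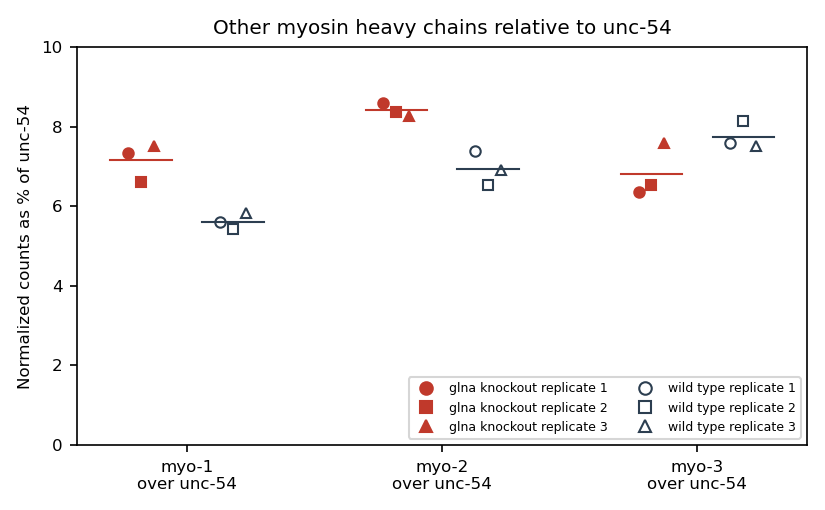
Normalized counts of *myo-1*, *myo-2* and *myo-3* are plotted as a percentage of *unc-54*, with 1 point per library and a line at each mean, knockout left of wild type. The 3 knockout libraries lie above the 3 wild-type libraries for both pharyngeal genes and overlap with them for *myo-3*.

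The other structural genes of the body wall thick filament had knockout values above all their wild-type values. *unc-15*, the paramyosin that forms the filament core, had 95186, 62124 and 58716 normalized counts in the knockout and 50212, 54075 and 54328 in wild type, with no overlap, a log2 fold change of 0.41 and an adjusted p of 0.259 by limma. The giant proteins that span the sarcomere had the same pattern. *unc-22*, twitchin, a kinase with immunoglobulin repeats, had 26870, 15077 and 15509 normalized counts in the knockout and 12129, 13112 and 13780 in wild type. *unc-89*, the M-line protein obscurin, had 24070, 14478 and 13153 in the knockout and 12114, 12980 and 13035 in wild type. Both sets of groups were apart, for *unc-89* by a narrow margin, with log2 fold changes of 0.51 and 0.39. *ttn-1* (chromosome V, 6120909 to 6202632, minus strand), the titin-like protein, had 7975, 6217 and 5911 normalized counts in the knockout and 4791, 5225 and 5445 in wild type. Its log2 fold change was 0.37 with a 95% interval of 0.04 to 0.69 and an adjusted p of 0.178 by limma. Without knockout replicate 1 the log2 fold changes of these 4 genes were 0.19, 0.24, 0.12 and 0.24, in the order named.

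The chaperone that folds myosin heads, *unc-45* (chromosome III, 491547 to 502625, plus strand), lay on the other side. It had 1506, 1892 and 1560 normalized counts in the knockout, against 2094, 2355 and 2136 in wild type. All knockout values were below all wild-type values, and the log2 fold change was -0.41 with a 95% interval of -0.70 to -0.13 and an adjusted p of 0.125 by limma. In the authors' deposited table its adjusted p was 0.0765. Without knockout replicate 1 the log2 fold change was -0.35, with an adjusted p of 0.211 by limma.

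Myosin light chains clip to the neck of each heavy chain. *mlc-2* (chromosome X, 17455792 to 17456586, minus strand), a regulatory light chain, had 9623, 15675 and 13135 normalized counts in the knockout and 17343, 18192 and 17590 in wild type. The groups did not overlap, and the log2 fold change was -0.50, with a 95% interval of -0.91 to -0.09 and an adjusted p of 0.162 by limma. It was the lowest of all members with all libraries, but at -0.30 without knockout replicate 1 it lay above *mup-2* (-0.40), *unc-45* (-0.35) and *unc-95* (-0.33). Its close copy *mlc-1* had 21783, 26298 and 24682 normalized counts in the knockout and 22552, 23506 and 24018 in wild type, which overlapped, with a log2 fold change of 0.05, or 0.13 without knockout replicate 1. *mlc-3*, the essential light chain, had 18556, 22461 and 21452 in the knockout and 21956, 24664 and 24326 in wild type, with a log2 fold change of -0.19, or -0.11 without that library, and an adjusted p of 0.415 by limma. Reads of *mlc-1* and *mlc-2* may have been divided or dropped between these near-identical genes, so how the pair divides is uncertain. Summed per kilobase of gene length, the light chains came to 45020, 60519 and 54663 in the knockout and 59569, 63437 and 62733 in wild type, while the pharyngeal heavy chains came to 5919, 3540 and 3186 in the knockout and 2470, 2465 and 2638 in wild type. The body wall thick filament class came to 71028, 45873 and 41260 per kilobase in the knockout and 37398, 40613 and 40619 in wild type. As log2 ratios of the group means these were -0.21 for light chains, 0.74 for pharyngeal heavy chains and 0.41 for the body wall class, and -0.10, 0.41 and 0.14 without knockout replicate 1.

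Actin and its partners had log2 fold changes between -0.11 and 0.22. *act-4*, the actin with the most counts per kilobase of any member in both genotypes, had 89501, 80386 and 73299 normalized counts in the knockout and 66232, 74993 and 75508 in wild type. The groups overlapped, and the log2 fold change of 0.16 had a 95% interval of -0.18 to 0.51, with a value of 0.09 without knockout replicate 1 and of -0.07 under quantile normalization. *act-3* (chromosome V, 11071690 to 11074498, minus strand) had 17379, 15072 and 14892 normalized counts in the knockout and 13150, 13995 and 13318 in wild type. Its groups were apart, with a log2 fold change of 0.22 and an adjusted p of 0.294 by limma. *act-1* and *act-2* overlapped between the genotypes, with log2 fold changes of -0.04 and -0.10, and of -0.07 and -0.24 without knockout replicate 1. The direction for *act-1* turned to 0.04 under quantile normalization. The 4 actin genes are near-identical in their coding parts, so their separate values are uncertain. The actin-severing protein gene *unc-60* had a log2 fold change of 0.01 with a 95% interval of -0.24 to 0.25, or -0.003 without knockout replicate 1. *unc-87*, a calponin-like protein that bundles actin, had -0.11, or -0.04 without that library. The table gives *unc-60* as a single gene, so the muscle and non-muscle proteins it encodes are not separated.

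Troponin and tropomyosin genes of body wall or shared use went both ways. *tnt-3* (C14F5.3, chromosome X, 7937633 to 7945099, minus strand), a troponin T, had 5882, 5213 and 4740 normalized counts in the knockout and 3458, 3058 and 4059 in wild type. The groups did not overlap, and the log2 fold change was 0.59 ± 0.14 (SE) with a 95% interval of 0.26 to 0.91. The adjusted p was 0.0832 by limma, the smallest among the members, and 0.0127 in the authors' deposited table. Leaving out knockout replicate 1 moved its log2 fold change less than those of the pharyngeal heavy chains, to 0.51. The adjusted p was then 0.146 by limma. *mup-2* (chromosome X, 6408471 to 6410227, minus strand), another troponin T, which body wall muscle needs in the embryo, lay the other way at 13504, 16862 and 12722 normalized counts in the knockout and 18782, 20204 and 18868 in wild type. Its groups were apart, with a log2 fold change of -0.44, a 95% interval of -0.76 to -0.11 and an adjusted p of 0.136 by limma. *tni-1*, a troponin I, also lay lower, at 1348, 2099 and 1809 in the knockout and 2150, 2702 and 2313 in wild type, with a log2 fold change of -0.46, or -0.29 without knockout replicate 1, and an adjusted p of 0.175 by limma. *lev-11*, the tropomyosin gene, was below wild type in all 3 knockout libraries with a log2 fold change of -0.15 and an adjusted p of 0.485 by limma.

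The most abundant troponin showed no detectable difference. *pat-10*, the troponin C of body wall muscle, had 26075, 31436 and 29307 normalized counts in the knockout and 26783, 30335 and 29521 in wild type. Its log2 fold change was 0.00 with a 95% interval of -0.30 to 0.30, or 0.07 without knockout replicate 1, and its sign depended on the scaling. *unc-27*, the main troponin I of body wall muscle, had a log2 fold change of -0.06 with a 95% interval of -0.32 to 0.19, and of 0.01 under quantile normalization. *tnt-2* and *tni-3* had log2 fold changes of 0.02 and -0.08, or -0.00 and 0.05 without knockout replicate 1. Over the 8 genes, 1 was above wild type in all knockout libraries (12.5%) and 3 were below (37.5%), against 15.3% and 15.2% of all genes tested. Their median log2 fold change was -0.07, or -0.03 without knockout replicate 1.

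Of the 3 pharyngeal troponins, *tni-4* and *tnc-2* (66.7%) had knockout values above all wild-type values, against 15.3% of all genes tested. Neither passed the test. *tni-4* (W03F8.1, chromosome IV, 5204591 to 5207124, plus strand), the troponin I of the pharynx, had 2217, 2170 and 2167 normalized counts in the knockout, against 1757, 1724 and 1837 in wild type. The 3 knockout libraries lay close together and above all wild-type values, with a log2 fold change of 0.30, a 95% interval of 0.07 to 0.53 and an adjusted p of 0.141 by limma. Without knockout replicate 1 the value was 0.29. *tnc-2* (chromosome II, 10466852 to 10468358, plus strand), the troponin C, had 708, 727 and 752 in the knockout and 666, 622 and 628 in wild type, again without overlap, with a log2 fold change of 0.19 and an adjusted p of 0.322 by limma. *tnt-4*, the troponin T, overlapped between the genotypes, with a log2 fold change of -0.01 and a 95% interval of -0.30 to 0.27, or 0.07 without knockout replicate 1. In the Ensembl annotation, exons of 13 members overlap those of another protein-coding gene. These are *unc-22*, *mlc-1*, *mlc-2*, *act-4*, *unc-60*, *unc-87*, *tni-4*, *tnc-2*, *unc-52*, *pat-2*, *unc-112*, *unc-98* and *alp-1*. The partners of *unc-60* and *unc-98*, and a further partner of *unc-22*, lie on the same strand and the others on the opposite strand, and nothing in the labels says that strand was kept, so reads of such partners cannot be told apart.

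A separate list held 7 other genes of the pharynx. Of them, 3 were above wild type in all knockout libraries (42.9%), 0 were below and 4 overlapped, against 15.3% and 15.2% of all genes tested above and below. Their log2 fold changes ran from -0.01 to 0.61, and the median log2 fold change was 0.19, or 0.14 without knockout replicate 1. limma called 0 of the 7. It gave 1 an unadjusted p under 0.05, on the higher side (14.3%, against 10.9% of all genes tested). That gene was *avr-15*, a glutamate-gated chloride channel of pharyngeal muscle, with 462, 535 and 486 normalized counts in the knockout and 315, 273 and 391 in wild type. Its log2 fold change was 0.61 with an adjusted p of 0.095 by limma and 0.0307 in the authors' deposited table. *lam-3*, the laminin alpha chain important to the pharynx, from the basement membrane list, had 529, 266 and 346 in the knockout and 132, 209 and 210 in wild type, with a log2 fold change of 1.02, an adjusted p of 0.105 by limma and 0.0113 in the authors' deposited table. *myo-5*, a further heavy chain gene of the pharynx list and named after its values were seen, had 2479, 2392 and 2122 in the knockout and 2071, 2041 and 2010 in wild type, a log2 fold change of 0.19 with an adjusted p of 0.327 by limma. The part of these genes in the values of the pharyngeal myosins and troponins was not tested.

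The 14 attachment genes had log2 fold changes between -0.36 and 0.39, with a median of 0.04, or -0.03 without knockout replicate 1. In all knockout libraries 2 of them were above wild type (14.3%) and 1 was below (7.14%), against 15.3% and 15.2% of all genes tested. In the matrix, *unc-52*, the perlecan to which dense bodies attach, had 31433, 17795 and 15102 normalized counts in the knockout and 14432, 16496 and 15757 in wild type. Knockout replicate 3 lay inside the wild-type range, and the log2 fold change of 0.39 came to 0.08 without knockout replicate 1. At the membrane, the integrin chains *pat-2* and *pat-3* had log2 fold changes of 0.01 and 0.07, or both -0.04 without knockout replicate 1, and the sign for *pat-2* turned with the scaling of edgeR. Of the integrin-bound proteins, the kinase-like *pat-4* had -0.12 with all knockout values below wild type, the parvin *pat-6* had -0.20, the kindlin *unc-112* had 0.06 and the LIM protein *unc-97* had -0.02, all on the log2 scale. With that library left out, *pat-4* had -0.08, *pat-6* -0.12 and *unc-97* -0.01.

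Genes for proteins of the dense body and the M-line divided again. *zyx-1* (chromosome II, 13056910 to 13071513, plus strand), zyxin, had 9648, 7734 and 7270 normalized counts in the knockout and 6463, 6422 and 6646 in wild type. The groups did not overlap, and the log2 fold change of 0.33 had a 95% interval of 0.02 to 0.63 and an adjusted p of 0.198 by limma. *deb-1*, vinculin, had 7397, 5011 and 4986 in the knockout and 3986, 4715 and 4482 in wild type, also without overlap, at 0.38 on the log2 scale. Without knockout replicate 1 these came to 0.20 for *zyx-1* and 0.19 for *deb-1*. *unc-95* (chromosome I, 14381360 to 14384737, minus strand), a LIM protein needed for the dense body and M-line, had 707, 878 and 645 normalized counts in the knockout and 848, 1068 and 929 in wild type. Its groups overlapped by 1 library of each genotype, and the log2 fold change of -0.36 had a 95% interval of -0.71 to -0.01 and an adjusted p of 0.216 by limma. *dim-1*, a protein with immunoglobulin repeats and the most abundant attachment gene per kilobase, had 12790, 14578 and 12277 in the knockout and 13318, 15573 and 14987 in wild type, which overlapped. The zinc finger gene *unc-98*, the enigma-family gene *alp-1* and the dystrophin gene *dys-1* had log2 fold changes of 0.04, 0.03 and 0.10, or 0.08, 0.07 and -0.05 without knockout replicate 1.

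The levels themselves span a wide range, here compared per kilobase of deposited gene length. *act-4* averaged 44985 ± 4507 normalized counts per kilobase in the knockout and 40091 ± 2893 in wild type (SD, n = 3 each), and *pat-10* followed at 37682 ± 3515 in the knockout and 37604 ± 2423 in wild type. The mean ± SD ranges of *act-4* and *pat-10* overlapped in both genotypes. That overlap depends on the length used, since the Ensembl exons cover 1601 bases of *act-4* (1802 deposited) and 979 of *pat-10* (768 deposited). Deposited and exon lengths were within 5% of each other for 31 members. Next in wild type came *mlc-2*, *unc-27*, *unc-54* and *mlc-1*, at 26750 ± 660, 21801 ± 194, 20575 ± 990 and 19563 ± 623, where *mlc-2* stood above the rest and the mean ± SD ranges of *unc-54* and *mlc-1* overlapped. The same genes averaged 19352 ± 4591, 20895 ± 763, 27611 ± 9162 and 20313 ± 1916 per kilobase in the knockout, where the spreads of all 4 overlapped. Pharyngeal forms were far lower than the genes just named. *tni-4* stood at 2616 ± 33.9 in the knockout and 2123 ± 69.3 in wild type. *myo-2* stood at 2310 ± 817 in the knockout and 1412 ± 42.8 in wild type, and *tnc-2* at 906 ± 27.8 and 793 ± 29.5. Some body wall forms were in that range or lower. Among these, *myo-3* stood at 1900 ± 498 in the knockout and 1637 ± 126 in wild type, and *unc-22* at 836 ± 292 and 568 ± 36.2. The titin-like *ttn-1*, whose gene model is the longest of the members at 56600 bases, had the lowest level at 118 ± 19.7 per kilobase in the knockout and 91.1 ± 5.87 in wild type.

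**Figure D4:**
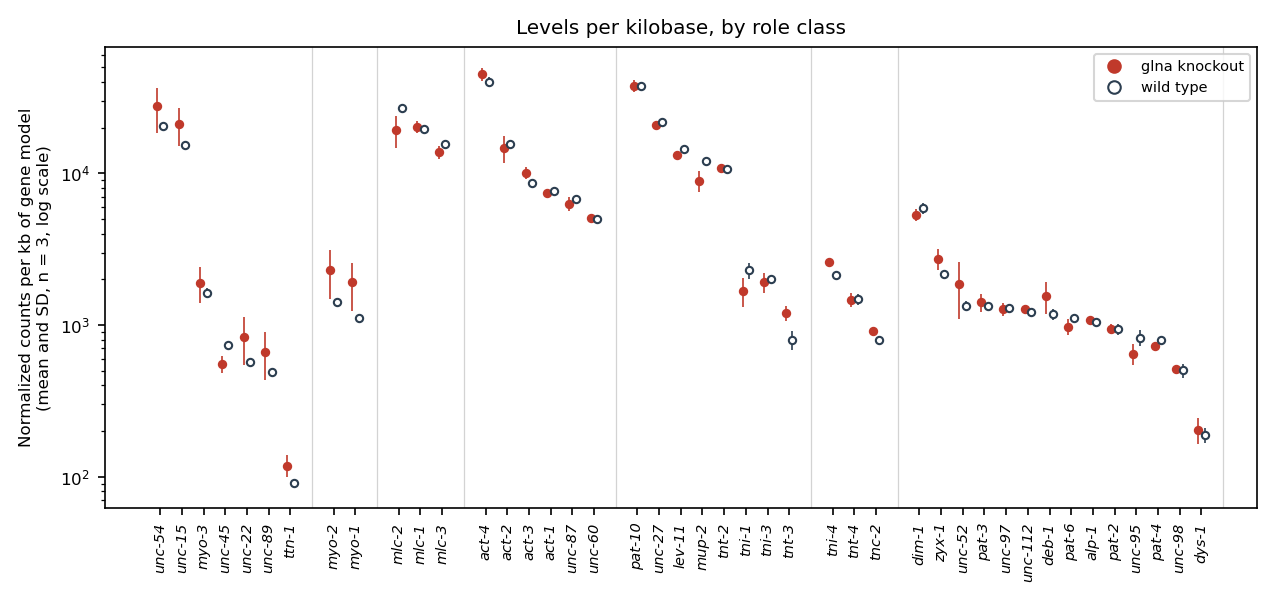
Mean normalized counts per kilobase of each member are drawn on a log axis with knockout and wild-type means and their SD (n = 3 each), ordered within role class. *act-4* and *pat-10* are highest, *ttn-1* is lowest, and the knockout mean departs from wild type most for *myo-1* and *myo-2*.

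Gene length moved with the differences between the genotypes. Across the 43 members, Spearman's rho between deposited gene length and the log2 fold change was 0.62, and 0.36 without knockout replicate 1, against 0.26 and 0.16 over all genes tested. These are correlations across genes that share their libraries and are given as a description. For single libraries set against the wild-type mean, the rho over the members was 0.69, 0.40 and 0.33 in the knockout and -0.28, 0.01 and 0.38 in wild type. The 5 members over 8 kb were *unc-89*, *unc-22*, *ttn-1*, *unc-52* and *dys-1*. Their median log2 difference from the wild-type mean was 0.92, 0.20 and 0.05 in the 3 knockout libraries, and over all 83 tested genes of that length it was 0.69, 0.06 and 0.06. The 6 members of 4 to 8 kb, which include all 4 heavy chains, had medians of 0.82, 0.35 and 0.16, where the 568 tested genes of that length had 0.50, 0.06 and 0.07. The 6 members under 1 kb had -0.11, 0.11 and 0.02, and all tested genes of that length had -0.23, -0.05 and -0.08. In knockout replicate 1 the median was thus high for long genes and low for short ones, and the part of length in the member values of that library was not tested.

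**Figure D5:**
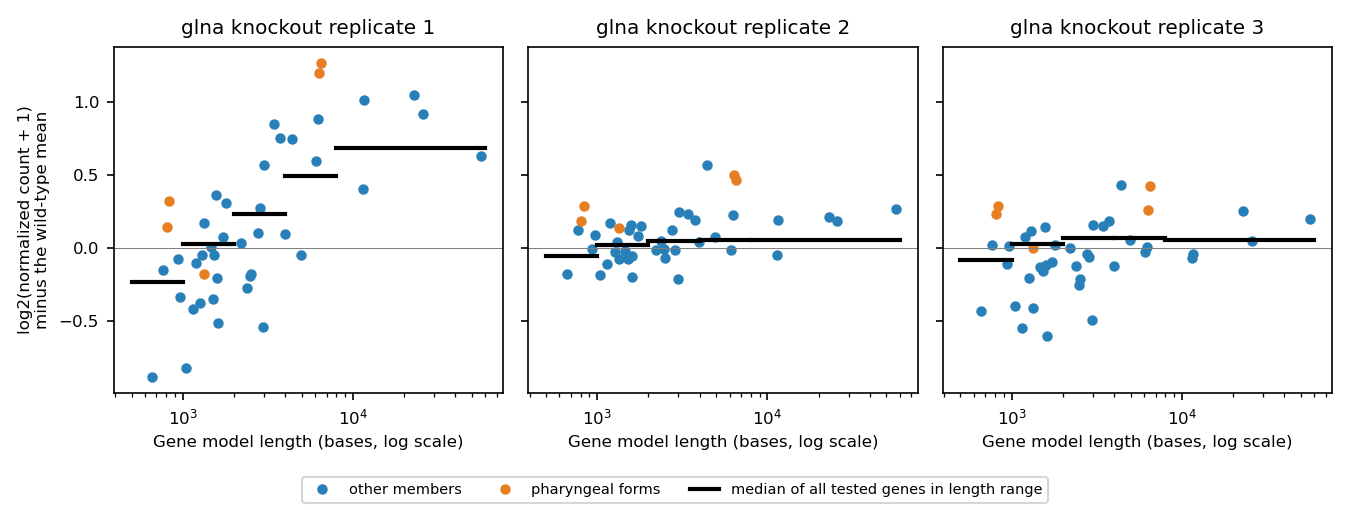
The log2 difference of each knockout library from the wild-type mean is plotted against gene length on a log axis, 1 panel per knockout library, with members as points, pharyngeal forms in a colour of their own, and the median of all tested genes in each length range as a line. In knockout replicate 1 the lines climb with length, to 0.69 over 8 kb, and in the other 2 knockout libraries they stay between -0.08 and 0.07.

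Genes that work beside the members were read from lists of their own. limma called 0 genes in any of these lists at an adjusted p under 0.05, and the authors' deposited table called *lam-3* and *avr-15*, given above, and 0 others. Of 19 other sarcomere and adhesion genes, 8 were above wild type in all knockout libraries (42.1%) and 0 below, against 15.3% and 15.2% of all genes tested. limma gave 3 an unadjusted p under 0.05, all higher (15.8%, against 10.9% of all genes tested). The smallest p was that of *unc-94*, tropomodulin, which caps the pointed ends of actin filaments, at 1884, 1627 and 1857 normalized counts in the knockout and 1280, 1293 and 1474 in wild type. Its groups were apart, with a log2 fold change of 0.41 and an adjusted p of 0.114 by limma. The list's median was 0.06 on the log2 scale, or 0.03 without knockout replicate 1. Among 14 genes of muscle excitation and calcium handling, 1 was above wild type in all knockout libraries (7.14%) and 0 below, and limma gave 0 an unadjusted p under 0.05. That gene was *sca-1*, the calcium pump of the sarcoplasmic reticulum, at 44415, 27760 and 28568 in the knockout and 22972, 25287 and 25674 in wild type, with a log2 fold change of 0.41, or 0.19 without knockout replicate 1, and an adjusted p of 0.246 by limma. Of 8 dystrophin complex genes, 2 were above (25%) and 1 below (12.5%), against 15.3% and 15.2% of all genes tested. The gene below was *stn-1*, a syntrophin, at -0.35 on the log2 scale with an adjusted p of 0.197 by limma. It was the 1 gene of its list with an unadjusted limma p under 0.05 (12.5% lower, against 11.8% of all genes tested). Of 12 basement membrane genes, 2 were above (16.7%) and 1 below (8.33%). limma gave 2 an unadjusted p under 0.05 on the higher side (16.7%) and 1 on the lower (8.33%), against 10.9% and 11.8% of all genes tested.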

How the data were processed

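The labels' protocols name TRIzol and the NEBNext Ultra RNA kit and do not state strand. The submitters' processing notes list, with no roles, the build WBcel235, featureCounts 1.5.0-p3 and DESeq2 1.20.0, beside HISAT2 2.0.5 and StringTie 1.3.3b. The deposited table holds signal values, which are the authors' counts of reads per gene after division by a size factor. The log2 fold changes (knockout over wild type), p-values and adjusted p-values deposited with them come from the authors' own test. Reads were recovered by dividing each library by its smallest step, and 100% of values came out whole within 0.01 read.

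limma 3.58.1 in R 4.3.3 (empirical Bayes with a trend) was fitted to log2(normalized count + 1) of the 15169 genes that averaged at least 10, with adjustment by Benjamini-Hochberg and calls at 0.05, and was tested on simulated data. Fold changes on this scale understate the change of low genes. On the recovered reads, edgeR 4.0.16 and DESeq2 1.42.0 were alternatives. Symbols and coordinates are from Ensembl 115, since the deposited start and end span less than the deposited length for 6 members. Lengths are those deposited. Tables and figures used Python 3.11.15, pandas 2.3.3, scipy 1.17.1 and matplotlib 3.10.9.

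Members, role classes and lists were chosen with earlier results of these data known. Values in every sample are given for members called by limma or in the authors' table, the 2 of smallest p and the most abundant of each class, by a rule set at the start. Other members with such values (*myo-3*, *unc-15*, *unc-22*, *unc-89*, *mlc-1*, *tni-1*, *unc-52* and *deb-1*) were chosen after their values were seen.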

Additional observations from a re-analysis of the deposited data

How the results depend on the processing

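limma called 0 members in either direction with a pseudocount of 0.5 or 5, no filter, a mean of at least 50, quantile normalization, or any 1 library left out, and edgeR called 0. Of all genes those limma fits called at most 0.592% higher and 1.03% lower, and 0 without knockout replicate 3 or wild type replicate 1 or 2, so 0 members says little there. By contrast, 3 members were higher in the authors' deposited table, by DESeq2 and by DESeq2 without knockout replicate 1, a fit added after the data were seen. An adjusted p under 0.1 gave 1, *tnt-3*. Deviations of equal sample numbers correlated at 0.20, -0.02 and 0.29 between the genotypes, and those of unequal numbers at -0.37 to 0.13. These values do not settle whether numbers pair the samples, and the main fit did not pair them. With the replicate block limma called 368 genes higher and 320 lower, against 32 and 22, and 0 members in either direction. Quantile normalization gave -0.51 for *unc-54*, -0.067 for *act-4* and -0.0089 for *pat-10* on the log2 scale. *pat-10* was also negative with edgeR (-0.0044), and between -0.061 and 0.074 with 1 library left out. Divided by length, the attachment class ratio was 0.05, or -0.01 without knockout replicate 1. It was 0.16 when counts were summed without dividing by length. The cause was not tested. Leaving out 1 library gave 0.45 to 0.87 for *myo-1*, 0.38 to 0.85 for *myo-2* and 0.49 to 0.69 for *tnt-3*. The intervals come from 3 libraries a genotype, and each gives the range of differences that its limma fit did not exclude.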

Other observations

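The list for the gonadal sheath, the contractile tissue around the oocytes that shares body wall forms of the contractile proteins, held 6 genes. All 6 had positive log2 fold changes, 4 had knockout values above all wild-type values (66.7%, against 15.3% of all genes tested), and the median was 0.27, or 0.12 without knockout replicate 1. *inx-8*, an innexin of the sheath's junctions with the germ line, had 1224, 1094 and 1019 normalized counts in the knockout and 849, 738 and 914 in wild type. Its log2 fold change was 0.42 with an adjusted p of 0.130 by limma, which called 0 of the 6. On the higher side limma gave 1 an unadjusted p under 0.05 (16.7%, against 10.9% of all genes tested).

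Of 8 genes of the epidermal structures that tie muscle to the cuticle, 1 was above and 1 below wild type in all knockout libraries (12.5% each, against 15.3% and 15.2% of all genes tested). The gene below was *vab-19*, at 797, 1019 and 1205 normalized counts in the knockout and 1258, 1624 and 1299 in wild type. Its log2 fold change was -0.48 with an adjusted p of 0.166 by limma. It was the 1 gene of the 8 with an unadjusted limma p under 0.05 (12.5% lower, against 11.8% of all genes tested). Of 5 non-muscle actomyosin genes, 0 had groups apart. The one with the smallest p, *nmy-2*, the myosin that divides early embryonic cells, had a log2 fold change of 0.32, or 0.14 without knockout replicate 1, and an adjusted p of 0.308 by limma.

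limma called 0 markers of the epidermis, sperm, neurons or intestine at an adjusted p under 0.05. At an unadjusted p under 0.05 it gave 1, 0, 0 and 3 of them higher and 2, 4, 0 and 0 lower. As shares of each list the epidermis had 11.1% higher and 22.2% lower, sperm 40% lower and the intestine 37.5% higher, against 10.9% and 11.8% of all genes tested. The authors' deposited table called 3 sperm markers lower (30%), and of the epidermis markers 1 higher and 1 lower (11.1% each). It called 4.01% higher and 4.13% lower of all genes that averaged at least 10. Of the 12 oocyte markers limma called 0, and it gave 11 an unadjusted p under 0.05 on the higher side (91.7%). The authors' deposited table called 5 of them higher (41.7%). The log2 fold change was negative for 8 of 9 epidermis markers (median -0.69) and for 9 of 10 sperm markers (median -0.37). Of the sperm markers, 0 were above and 5 below wild type in all knockout libraries (50% below, against 15.2% of all genes tested). The epidermis markers did not divide by genotype. Their median log2 difference from the wild-type mean was -0.92, -1.05 and -0.04 in the knockout libraries and -0.69, 0.32 and 0.39 in the wild-type libraries. Of the 9, 1 was above and 1 below wild type in all knockout libraries (11.1% each, against 15.3% and 15.2% of all genes tested). The 8 neuron markers had a median of 0.10, with no groups apart, and the 8 intestine markers a median of 0.20. Among these the yolk protein genes *vit-2*, *vit-5* and *vit-6* had log2 fold changes of 1.44, 1.49 and 1.23, with knockout values above all wild-type values, or 0.90, 0.89 and 0.73 without knockout replicate 1. The rest of the intestine list went both ways. *pept-1* had 0.39, or 0.22 without knockout replicate 1, and *ifb-2* had 0.01, or 0.06 without that library. *act-5* had -0.06, and the intestinal regulator *elt-2* and the esterase gene *ges-1* had -0.26 and -0.22. These genes were named after their values were seen. Their part in the values of the muscle genes was not tested.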
